A study of Mus musculus with 32 samples.

Results

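The endoplasmic reticulum (ER) stress and integrated stress response genes described here are *Atf4*, *Ddit3*, *Atf3*, *Trib3*, *Chac1*, *Asns*, *Hspa5*, *Herpud1*, *Xbp1* and *Creb3l3*, 10 genes grouped by their function. These genes and the gene lists below were chosen with earlier results of these data known. The 10 genes were found by gene symbol in a liver RNA-Seq table of 54532 genes, where 11 entries carried these 10 symbols. The second *Ddit3* entry (ENSMUSG00000116429, 105 bases long) held 0 counts in each of the 32 mice and was not tested. The other 10 passed the filter on low counts in all 12 comparisons made. In the table's coordinates (build mm10), the protein-coding genes on the plus strand were *Atf4* (ENSMUSG00000042406) at chr15:80255184-80257541, *Ddit3* (ENSMUSG00000025408) at chr10:127290774-127296288, *Chac1* (ENSMUSG00000027313) at chr2:119351229-119354381, *Hspa5* (ENSMUSG00000026864) at chr2:34771970-34777547, *Herpud1* (ENSMUSG00000031770) at chr8:94386438-94395377 and *Xbp1* (ENSMUSG00000020484) at chr11:5520659-5525893. Those on the minus strand were *Atf3* (ENSMUSG00000026628) at chr1:191170296-191218039, *Trib3* (ENSMUSG00000032715) at chr2:152337422-152344032, *Asns* (ENSMUSG00000029752) at chr6:7675169-7693254 and *Creb3l3* (ENSMUSG00000035041) at chr10:81084324-81098874.

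The mice were C57BL/6 and 12 weeks old, 4 in each of 8 groups that combined sex, genotype and diet. *Cyp2c70* KO mice carry a germline CRISPR deletion of exon 2 of *Cyp2c70*, the cytochrome P450 that makes muricholic acids in mice, and were set beside wild type (WT) mice. Each genotype was fed chow or chow with 0.006% SC-435, about 11 mg per kg per day, an inhibitor of the ileal bile acid transporter (IBATi), from after weaning until 12 weeks of age. The animals had not been fasted. RNA came from pieces of whole liver, so that fewer cells of a type and less RNA per cell cannot be told apart in any value below.

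The integrated stress response is a pathway in which kinases phosphorylate the translation factor eIF2, general protein synthesis slows, and the mRNA of the transcription factor ATF4 is translated. ATF4 and its partners then act on genes for amino acid supply, such as *Asns*, and on *Ddit3*, *Trib3* and *Chac1*. The unfolded protein response shares the kinase PERK and adds ATF6 and IRE1, whose cut of *Xbp1* mRNA yields an active factor that acts on ER chaperones. In liver, the large output of secreted proteins keeps ER chaperones high, and CREB3L3 is a membrane-bound factor of hepatocytes released by the same proteases as ATF6. Counts over whole genes measure mRNA only, and do not show ATF4 translation or separate the forms of *Xbp1* mRNA.

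Depth was even, with 36476021 to 44771350 counts per mouse (median 42232543). *Cyp2c70* itself lay between 271 and 838 CPM (counts scaled to library size) in WT mice and between 109 and 188 CPM in KO mice, with no overlap. For CPM values, library sizes were adjusted by TMM factors taken over the 32 libraries. For each test, the factors were taken over the libraries in that test. The male chow-fed WT mouse of replicate 1 stood apart, with a TMM factor of 0.622 beside 0.911 to 1.26 in the other libraries, and a mean correlation with its group of 0.918 beside at least 0.962 elsewhere. Values without this mouse stand beside the male results that rest on it. Hepatocyte markers were abundant in all groups, with 8 of 8 detected and summed levels between 53577 and 184631 CPM, the highest being that of this mouse beside 76699 to 85241 CPM in the other 3 of its group.

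The promoters show which stress response elements lie near the start of each gene. Windows from 250 bases before to 50 bases after the start (RefSeq, GRCm38.p6) were matched for 10 of 10 genes, 11 windows in all since *Creb3l3* has 2. They were searched on both strands for the ER stress element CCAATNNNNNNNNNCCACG, its second form ATTGGNCCACG, the C/EBP-ATF element TGATGNAA and the XBP1/ATF6 core TGACGTG. No matches overlapped each other in these windows. The 6 genes with a match are shown from 200 bases before to 25 bases after the start on the gene's strand, with matched bases in capitals, since they include the genes that moved most below. They lie at chr2:34771890-34772114 (*Hspa5*, plus strand), chr8:94386229-94386453 (*Herpud1*, plus), chr1:191183309-191183533 (*Atf3*, minus), chr2:119351042-119351266 (*Chac1*, plus), chr6:7693185-7693409 (*Asns*, minus) and chr2:152344036-152344260 (*Trib3*, minus).
Hspa5: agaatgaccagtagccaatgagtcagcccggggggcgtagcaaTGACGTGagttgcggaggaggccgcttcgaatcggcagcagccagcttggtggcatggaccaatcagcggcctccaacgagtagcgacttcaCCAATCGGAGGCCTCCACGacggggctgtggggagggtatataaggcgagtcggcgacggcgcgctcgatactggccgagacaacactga
Herpud1: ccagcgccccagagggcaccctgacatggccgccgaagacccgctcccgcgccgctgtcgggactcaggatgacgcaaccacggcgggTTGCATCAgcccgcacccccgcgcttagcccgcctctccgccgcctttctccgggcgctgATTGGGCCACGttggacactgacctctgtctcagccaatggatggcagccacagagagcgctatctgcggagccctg
Atf3: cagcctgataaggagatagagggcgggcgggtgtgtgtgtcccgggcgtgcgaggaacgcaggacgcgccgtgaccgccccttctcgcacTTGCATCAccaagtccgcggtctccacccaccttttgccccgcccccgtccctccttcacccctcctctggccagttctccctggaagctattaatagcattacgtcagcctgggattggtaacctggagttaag
Chac1: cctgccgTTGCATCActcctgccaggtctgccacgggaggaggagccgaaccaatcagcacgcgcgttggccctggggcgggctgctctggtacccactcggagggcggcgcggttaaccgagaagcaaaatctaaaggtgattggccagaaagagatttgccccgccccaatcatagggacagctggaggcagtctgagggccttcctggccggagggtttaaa
Asns: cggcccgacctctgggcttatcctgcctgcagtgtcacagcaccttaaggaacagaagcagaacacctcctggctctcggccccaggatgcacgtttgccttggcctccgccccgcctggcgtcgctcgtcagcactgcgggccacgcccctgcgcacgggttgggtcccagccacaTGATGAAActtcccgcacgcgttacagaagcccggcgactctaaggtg
Trib3: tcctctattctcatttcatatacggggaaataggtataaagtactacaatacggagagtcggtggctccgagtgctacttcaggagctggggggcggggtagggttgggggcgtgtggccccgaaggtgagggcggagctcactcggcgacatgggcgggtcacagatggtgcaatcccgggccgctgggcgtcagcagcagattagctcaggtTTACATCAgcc
*Hspa5* held the ER stress element, found in 0.119% of 32851 windows, and the TGACGTG core, found in 2.01%. *Herpud1* held the second form of the ER stress element, found in 0.0365% of windows, and a C/EBP-ATF element. The C/EBP-ATF element was matched in 5 of the 10 genes (*Asns*, *Atf3*, *Chac1*, *Herpud1* and *Trib3*) and in 3.97% of all windows. *Ddit3*, *Atf4*, *Xbp1* and *Creb3l3* held none of these 4 letter strings in their windows. A match is a string of letters and no measurement of binding.

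**Figure D1:**
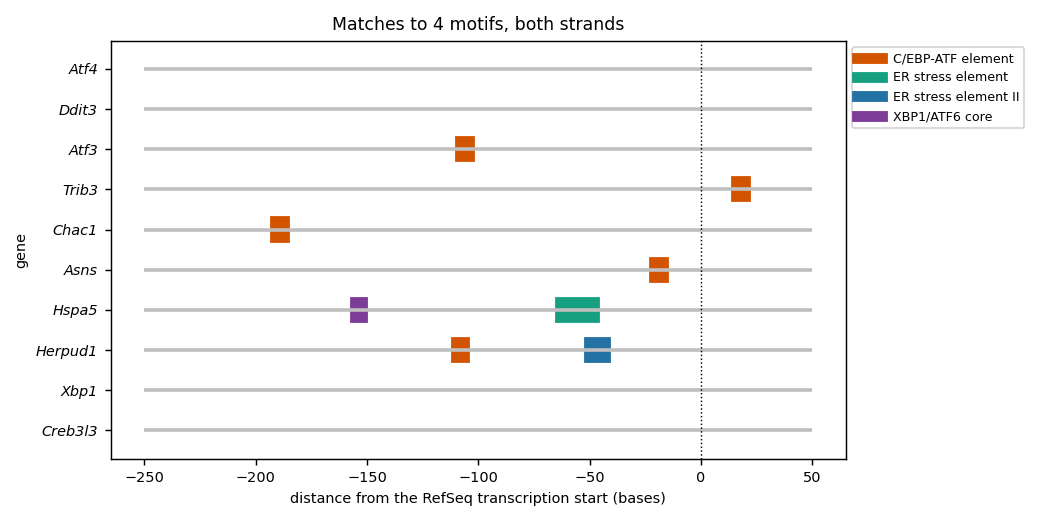
Position of each motif match along the window of each gene, with distance from the RefSeq start in bases on the horizontal axis and 1 line per gene. The C/EBP-ATF matches (orange) lie at different distances, from -193 in *Chac1* to 15 in *Trib3*, while the ER stress elements of *Hspa5* and *Herpud1* start at -65 and -52.

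Per length, the genes fell into an abundant and a scarce set. In the authors' FPKM values, averaged over the 32 mice, the order was *Hspa5* at 228, *Herpud1* at 173, *Creb3l3* at 112, *Xbp1* at 78.2 and *Atf4* at 39.4. Next came *Trib3* at 6.11, *Ddit3* at 3.90, *Asns* at 3.88, *Chac1* at 3.04 and *Atf3* at 1.30 FPKM. The chaperone and degradation genes were thus the most abundant, and the targets and partners of ATF4 the least. Ranges over single mice overlapped between neighbours in this order except between *Atf4* (26.0 to 56.6 FPKM) and *Trib3* (1.96 to 10.8 FPKM).

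Across the 8 group means in CPM, the genes differed in how far they ranged. *Asns* ranged 43.5-fold from the lowest to the highest group and *Atf3* 14.2-fold, while *Atf4* ranged 1.26-fold. The other 7 ranged between 2.16-fold (*Creb3l3*) and 5.14-fold (*Chac1*), and without the male WT mouse of replicate 1 *Creb3l3* ranged 1.60-fold. With all 32 mice, ranges of neighbouring groups stayed apart only for *Asns*, between female KO mice on SC-435 and on chow, and for *Herpud1*, between the same groups. Without that mouse they also stayed apart for *Asns* between male WT mice on SC-435 and chow-fed male KO mice, and for *Herpud1* between chow-fed male WT mice and female KO mice on SC-435.

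**Figure D2:**
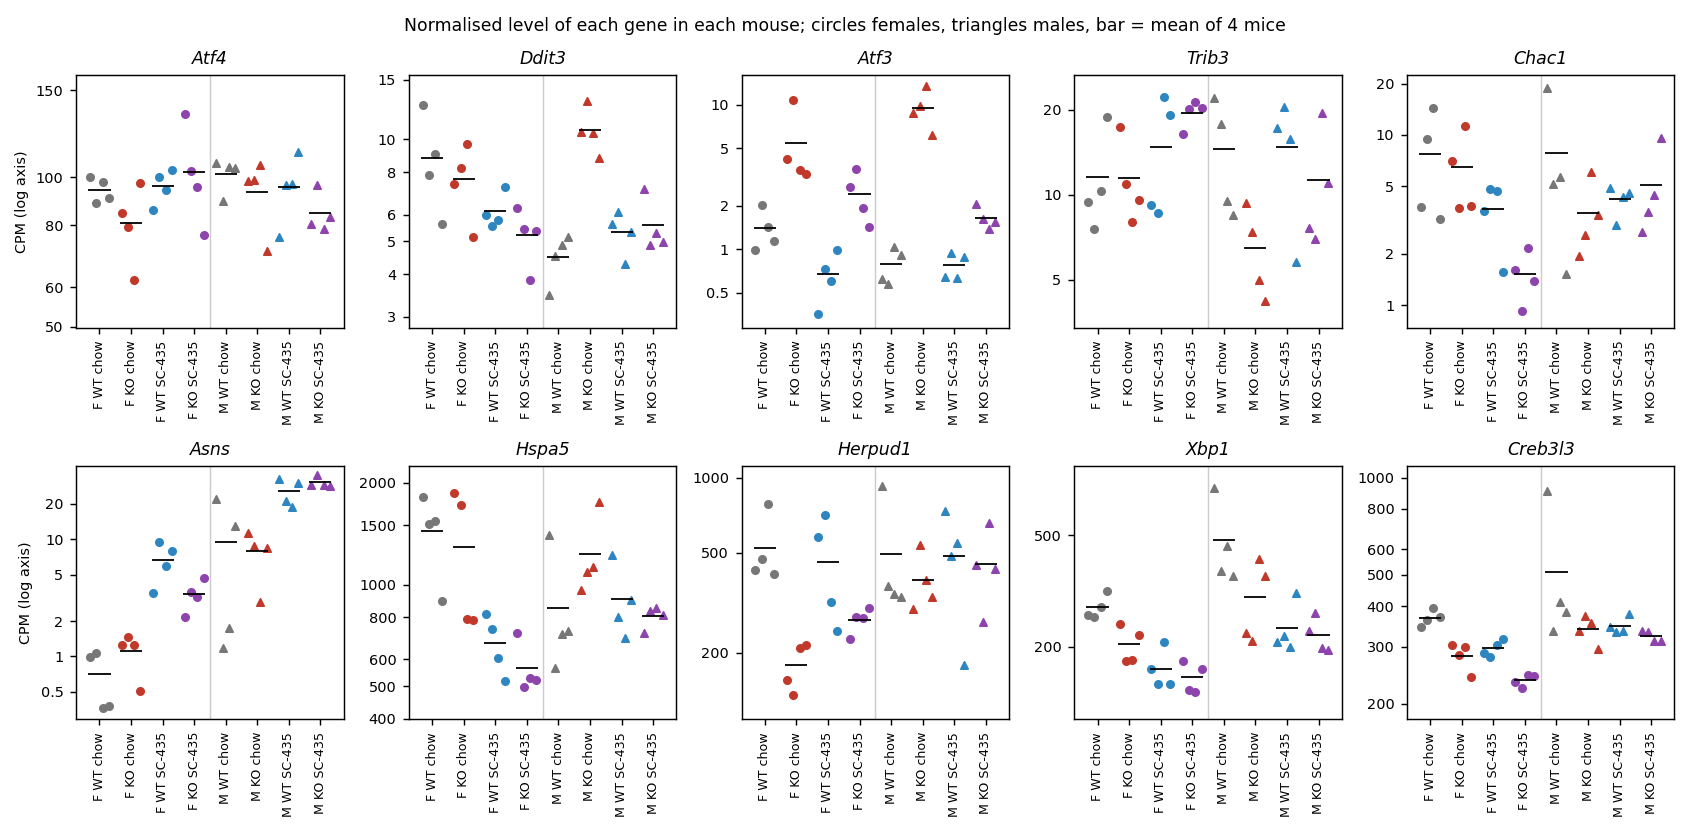
Normalised level of each gene in CPM on a log axis, with 1 point per mouse, circles for females and triangles for males, and a bar at the mean of 4 mice. *Atf3* is high in the chow-fed KO groups of both sexes, *Asns* has a higher mean on SC-435 than on chow within each sex and genotype, and *Atf4* stays between 62.1 and 134 CPM.

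The number of the 10 genes that passed the test differed by comparison (edgeR's quasi-likelihood test, Benjamini-Hochberg adjusted p under 0.05). In females, 4 of 10 passed between KO and WT mice on chow, where 14.9% of 16205 genes tested passed. Between SC-435 and chow, 5 of 10 passed in female KO mice, beside 17.8% of 16332 genes, and 3 of 10 in female WT mice, beside 4.28% of 15739 genes. On SC-435, 3 of 10 passed between female KO and WT mice, beside 10.9% of 15869 genes. In males, 2 of 10 passed between KO and WT mice on chow, beside 1.08% of 15862 genes, and 4 of 10 between SC-435 and chow in KO mice, beside 17.2% of 15984 genes. None of the 10 passed in male WT mice between the diets, where 0.0394% of genes passed, nor between male KO and WT mice on SC-435, where 0.0324% passed. At an unadjusted p under 0.05, 1 of the 10 lay in each of these comparisons, and DESeq2 passed 1 in each. The shares of all genes under these rules are not given here, so these counts cannot be set against them. By direction, the chow-fed female KO mice had 1 of the 10 genes higher (9.83% of all genes) and 3 lower (5.05%). SC-435 in female KO mice gave 3 higher (8.56%) and 2 lower (9.23%), and in female WT mice 1 higher (2.40%) and 2 lower (1.88%). On SC-435, female KO mice had 1 higher (6.23%) and 2 lower (4.69%) than WT mice. In males, 2 were higher in chow-fed KO mice (0.933%), and SC-435 in KO mice gave 1 higher (8.80%) and 3 lower (8.36%).

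With a log2 fold change beyond 1 as well, the counts were 2 (6.68% of all genes), 3 (5.80%), 2 (1.10%) and 2 (2.56%) in the 4 female comparisons, in the order above, and 2 (1.05%) and 2 (6.45%) in the first 2 male ones. The 4 mice of 1 group all lay above or all below those of the other for 4 (20.8% of all genes), 5 (22.0%), 4 (13.4%) and 2 (18.4%) of the 10 genes in the female comparisons. In males this was so for 2 (14.6%) between genotypes on chow, 4 (25.9%) between diets in KO mice, 1 (7.10%) between diets in WT mice and 1 (5.35%) between genotypes on SC-435. The median log2 fold change of the 10 genes lay between -0.42 and -0.02 in these 8 comparisons, and that of all genes between -0.03 and 0.04. Comparisons that share a group, such as the chow-fed KO mice, are not independent of each other.

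**Figure D3:**
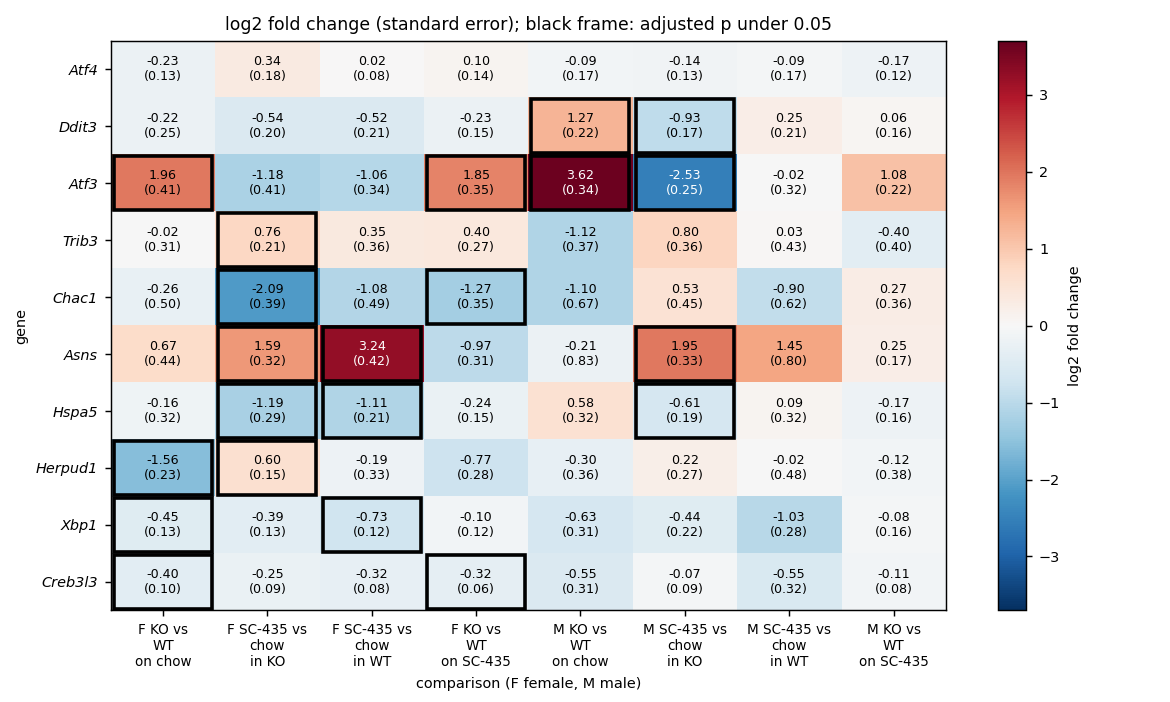
Log2 fold change with its standard error in parentheses for each gene (rows) in the 8 comparisons of 2 groups (columns), with black frames where the adjusted p was under 0.05. *Atf3* is framed in 4 columns, *Asns* and *Hspa5* in 3 each, and *Atf4* in none.

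*Atf4* mRNA, which encodes the central factor of the integrated stress response, did not pass in any comparison. The lowest group mean was 81.0 ± 14.7 CPM (SD, n = 4) in female chow-fed KO mice. The highest was 102 ± 24.0 CPM (SD, n = 4) in female KO mice on SC-435, where single mice had 134, 103, 95.8 and 76.6 CPM. All 8 groups overlapped. Of the 7 genes listed for eIF2 kinases, eIF2 and its phosphatase subunits, 1 passed in 1 of the 6 comparisons of diet or of genotype on chow. This was *Eif2ak3*, which encodes PERK, lower in male KO mice on SC-435 (17.5 ± 2.10 CPM) than on chow (28.1 ± 8.54 CPM; log2 fold change -0.68 ± 0.20 SE, edgeR adjusted p = 0.0482). That call was kept in 2 of 8 fits that left out 1 mouse, those without chow replicate 1 or 2.

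*Atf3*, an early stress-induced transcription factor, was the gene that differed most between genotypes. In chow-fed females it was at 0.982, 2.02, 1.43 and 1.14 CPM in WT mice and at 4.20, 10.8, 3.53 and 3.30 CPM in KO mice. Every KO mouse was above every WT mouse, and the log2 fold change was 1.96 ± 0.41 (SE, edgeR adjusted p = 0.0116). Without the mouse at 10.8 CPM, the lowest log2 fold change of the 8 leave-one-out fits, 1.41, was still called. In chow-fed males, WT mice had 0.624, 0.575, 1.04 and 0.907 CPM, and KO mice had 8.75, 9.74, 13.5 and 6.13 CPM. These groups did not overlap either, with a log2 fold change of 3.62 ± 0.34 (SE, edgeR adjusted p = 0.00343), and of 3.51 (adjusted p = 0.00373) without the WT mouse of replicate 1.

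SC-435 lowered *Atf3* in male KO mice to 2.04, 1.63, 1.37 and 1.54 CPM, all below the chow-fed KO mice (log2 fold change -2.53 ± 0.25 SE, edgeR adjusted p = 0.00063). In male WT mice the means were alike, 0.776 ± 0.162 CPM on SC-435 and 0.787 ± 0.224 CPM on chow (SD, n = 4), the latter 0.841 ± 0.240 CPM without the mouse of replicate 1 (n = 3). The effect of SC-435 on *Atf3* differed between male genotypes by -2.52 on the log2 scale (SE 0.39, edgeR adjusted p = 0.0299), beside 0.0906% of 16555 genes that passed this test. This difference was kept in 8 of 16 leave-one-out fits, among them that without the chow-fed WT mouse of replicate 1. It was lost without chow-fed WT replicate 2, chow-fed KO replicate 3, WT replicates 2 or 4 on SC-435, or any of the 4 KO mice on SC-435, with adjusted p values up to 0.112.

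On SC-435, *Atf3* in female KO mice was at 2.71, 3.58, 1.93 and 1.43 CPM, and 1 of these mice lay above the lowest chow-fed KO mouse. The log2 fold change of -1.18 ± 0.41 missed the threshold (SE, edgeR adjusted p = 0.0761), though it passed in 5 of 6 other settings. Female KO mice on SC-435 stayed above female WT mice on SC-435, which had 0.356, 0.731, 0.604 and 0.985 CPM (log2 fold change 1.85 ± 0.35 SE, edgeR adjusted p = 0.0102). Male KO and WT mice on SC-435 did not overlap either, but the log2 fold change of 1.08 ± 0.22 did not pass (SE, edgeR adjusted p = 0.232). No difference between the sexes in the effect of genotype or diet on *Atf3* passed (edgeR adjusted p = 0.571 and 0.301), the first having an adjusted p of 0.261 without the male WT mouse of replicate 1.

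Markers of other cell types moved with *Atf3*. Summed over 9 markers, cholangiocyte genes were at 56.1 to 87.1 CPM in chow-fed female WT mice and at 153 to 317 CPM in KO mice. In males they were at 45.2 to 54.2 CPM in WT and 168 to 1201 CPM in KO mice. Of the 8 cholangiocyte markers tested, 6 were higher in female chow-fed KO mice, beside 9.83% of all genes higher, and 4 in male ones, beside 0.933%. SC-435 lowered 2 in female KO mice, beside 9.23% of all genes lower, and 6 in male KO mice, beside 8.36%. Beside the same shares of genes higher, 10 of 12 macrophage markers were higher in chow-fed KO females and 2 in males. For stellate and fibroblast markers, 5 of 10 were higher in females and none in males at the adjusted threshold. Summed macrophage levels were 395 to 469 CPM in female WT, 653 to 985 CPM in female KO, 300 to 494 CPM in male WT and 369 to 1478 CPM in male KO mice on chow. Stellate and fibroblast sums were 297 to 409, 465 to 1080, 243 to 294 and 405 to 1366 CPM in the same groups. On SC-435, macrophage sums were 326 to 510 CPM in female and 298 to 454 CPM in male KO mice. Stellate and fibroblast sums were 421 to 513 and 197 to 299 CPM there, and cholangiocyte sums 118 to 166 and 66.7 to 77.3 CPM. Of 7 neutrophil markers, 2 were tested and both were higher in chow-fed female KO mice, where 9.83% of all genes were higher. Of 8 lymphocyte markers 1 was higher there, and none of 5 endothelial markers passed. Without the male WT mouse of replicate 1, more markers passed between chow-fed males, with 6 of 8 cholangiocyte, 2 of 12 macrophage, 5 of 10 stellate and fibroblast and 2 of 2 neutrophil markers higher and 2 of 5 endothelial markers lower in KO mice, beside 4.38% of 16390 genes higher and 2.92% lower. *Atf3* followed the cholangiocyte sum over the 32 mice (Pearson r = 0.85, log2 CPM), and not after group means were subtracted (r = 0.04), with 0.85 and 0.04 without that mouse. Over the 32 mice r was 0.74 with the stellate and fibroblast sum, 0.56 with neutrophil, 0.43 with macrophage and 0.24 with lymphocyte sums. It was -0.34 with hepatocyte and -0.55 with endothelial sums. After group means were subtracted these 6 lay between -0.32 and 0.02. *Atf3* and the sums rest on the same libraries, and the part of these cells in the *Atf3* result was not tested.

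**Figure D4:**
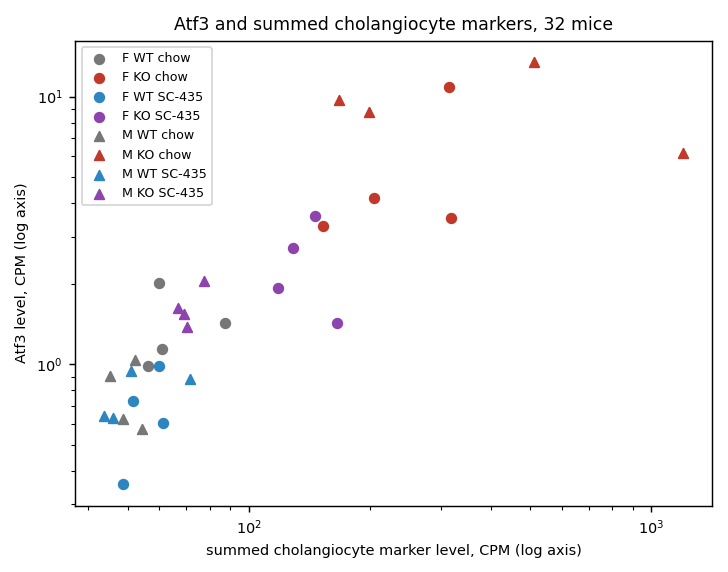
*Atf3* level against the summed level of 9 cholangiocyte markers in each of the 32 mice, both in CPM on log axes, with colours for genotype and diet and shapes for sex. The chow-fed KO mice lie at the upper right, and the male mouse with the highest marker sum (1201 CPM) has the lowest *Atf3* of its group (6.13 CPM).

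*Atf3* is also an immediate early gene, and 11 other immediate early genes were followed as a list. In chow-fed KO mice, 5 of 11 were higher in females, beside 9.83% of all genes higher, and 5 of 11 in males, beside 0.933%. *Fosb*, a partner of JUN in the AP-1 factor, was at 0.219 ± 0.0520 CPM in female WT and 1.22 ± 0.199 CPM in female KO mice (SD, n = 4), and at 0.201 ± 0.0309 and 8.11 ± 6.20 CPM in males. *Fos* (log2 fold change 2.11) and *Klf6* (1.30) also rose in chow-fed female KO mice, and *Jun* (1.77) and *Egr1* (3.38) in males. SC-435 lowered 5 of 11 in female KO mice, beside 9.23% of all genes lower, and 7 of 11 in male KO mice, beside 8.36%. In female WT mice SC-435 raised *Egr1* from 10.8 ± 4.95 to 69.0 ± 48.7 CPM (SD, n = 4, log2 fold change 2.68 ± 0.53 SE), a call lost without chow or SC-435 replicate 3 or 4. The male count on chow was 8 without the WT mouse of replicate 1, but 0 without either WT replicate 3 or 4, 1 without WT replicate 2 or KO replicate 3, and 3 without KO replicate 1 or 4. Over all genes, 718, 9, 24, 11, 30, 50 and 37 were higher in these fits in turn, beside 148 in the main fit. In females the count on chow was 8 without KO replicate 4, where 2081 of all genes were higher in place of 1593. The diet count in female KO mice was 3 without SC-435 replicate 1 or 3, where 786 and 796 of all genes were lower in place of 1508.

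*Ddit3* encodes CHOP, a factor tied to prolonged ER stress. In males it was at 3.47, 4.51, 4.88 and 5.16 CPM in chow-fed WT mice and at 10.5, 12.9, 10.5 and 8.78 CPM in KO mice. The groups did not overlap (log2 fold change 1.27 ± 0.22 SE, edgeR adjusted p = 0.0372), and without the WT mouse of replicate 1 the value was 1.15 (adjusted p = 0.0112). It lost the call without any of the other 7 mice, WT replicates 2, 3 and 4 or KO replicates 1 to 4, with adjusted p values up to 0.139, and with library size only as the scaling. SC-435 brought male KO mice to 7.13, 4.89, 5.28 and 4.98 CPM, all below the chow-fed KO mice (log2 fold change -0.93 ± 0.17 SE, edgeR adjusted p = 0.00855), and this held in 8 of 8 leave-one-out fits. The effect of SC-435 on *Ddit3* differed between male genotypes by -1.19 on the log2 scale and did not pass (SE 0.27, edgeR adjusted p = 0.0962), but passed without the WT mouse of replicate 1 (-1.10, adjusted p = 0.0466).

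In females, *Ddit3* did not follow the genotype. Chow-fed WT mice had 12.6, 7.85, 9.05 and 5.63 CPM and KO mice 7.39, 8.21, 9.72 and 5.14 CPM, with overlap. The difference between the sexes in the effect of genotype was -1.45 ± 0.34 on the log2 scale, female minus male, and did not pass (SE, edgeR adjusted p = 0.366), where 0.0235% of 17026 genes passed. DESeq2 passed it, and without the male WT mouse of replicate 1 the value was -1.35 (edgeR adjusted p = 0.0919). *Ddit3* overlaps *Mars* on the other strand, and whether the counting used strand is not given in the sources used here, so reads of the 2 genes cannot be told apart with certainty. *Mars* was at 63.7 ± 9.54 CPM in male chow-fed KO mice and 87.3 ± 37.0 CPM in WT mice (SD, n = 4), or 68.9 ± 5.05 CPM in WT mice without replicate 1 (n = 3), and the difference did not pass with or without it (edgeR adjusted p = 0.482 and 0.634). The part of *Mars* reads in the *Ddit3* result was not tested.

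*Asns*, the enzyme that makes asparagine and a well-known ATF4 target, was raised by SC-435. In female WT mice it went from 0.982, 1.08, 0.364 and 0.380 CPM on chow to 3.46, 9.51, 5.87 and 7.88 CPM on SC-435. The groups did not overlap, and the log2 fold change was 3.24 ± 0.42 (SE, edgeR adjusted p = 0.00581). In female KO mice it went from 1.26, 1.47, 1.25 and 0.509 CPM to 2.15, 3.54, 3.22 and 4.71 CPM, again with no overlap (1.59 ± 0.32 SE, adjusted p = 0.0106). The rise in KO mice was smaller than in WT mice by 1.66 on the log2 scale (value -1.66 ± 0.56 SE), which did not pass (adjusted p = 0.110), where 2.64% of 16882 genes passed. DESeq2 passed it (adjusted p = 0.0378).

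In male KO mice, *Asns* rose from 11.4, 8.84, 2.94 and 8.50 CPM on chow to 29.3, 35.3, 29.2 and 28.3 CPM on SC-435 (log2 fold change 1.95 ± 0.33 SE, edgeR adjusted p = 0.00688). In male WT mice it was at 21.9, 1.18, 1.76 and 12.9 CPM on chow and 32.5, 21.3, 18.7 and 30.5 CPM on SC-435. These WT groups overlapped by the chow-fed mouse of replicate 1, and the difference did not pass (edgeR adjusted p = 0.836, and 0.133 without that mouse). In each of the 4 pairs of genotype and diet, every male lay above every female, as on chow in WT mice (1.18 CPM or more beside 1.08 or less). The levels of the sexes were not tested against each other.

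*Chac1* and *Trib3* are 2 further targets of ATF4. *Chac1*, which degrades glutathione, was at 7.02, 3.72, 11.3 and 3.81 CPM in chow-fed female KO mice and at 1.61, 0.919, 2.17 and 1.39 CPM in those on SC-435. Every treated mouse was below every chow-fed one (log2 fold change -2.09 ± 0.39 SE, edgeR adjusted p = 0.00794). These treated KO mice also had a lower mean than female WT mice on SC-435, which had 3.56, 4.83, 4.71 and 1.57 CPM, with overlap. The log2 fold change was -1.27 ± 0.35 (SE, edgeR adjusted p = 0.0451). That call was kept in 1 of 8 leave-one-out fits, that without WT replicate 4. Male KO mice had 1.94, 2.60, 6.09 and 3.37 CPM on chow and 2.68, 3.55, 4.41 and 9.56 CPM on SC-435, and no male comparison passed. The difference between the sexes in the diet effect in KO mice was -2.64 ± 0.65 (female minus male, log2, SE) and did not pass (edgeR adjusted p = 0.109), where 0.211% of 17069 genes passed.

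*Trib3*, a pseudokinase that binds AKT and ATF4, was at 17.4, 10.9, 8.02 and 9.61 CPM in chow-fed female KO mice and at 16.4, 20.1, 21.3 and 20.3 CPM on SC-435. The groups overlapped by 1 mouse (log2 fold change 0.76 ± 0.21 SE, edgeR adjusted p = 0.0335), and the call was kept in 2 of 8 leave-one-out fits, those without chow replicate 1 or 4. With library size only the call was lost. No other comparison passed for *Trib3*. Male chow-fed KO mice had the lowest mean, 6.49 ± 2.33 CPM, and female KO mice on SC-435 the highest, 19.5 ± 2.13 CPM (SD, n = 4).

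The other ATF4 targets moved in both directions. Of 17 genes for amino acid synthesis and transport, 15 were tested in chow-fed females and 3 were higher in KO than in WT mice, *Pck2* (4.90 ± 0.662 to 9.71 ± 1.05 CPM), *Aldh18a1* and *Slc7a1*, beside 9.83% of all genes higher. The *Pck2* and *Aldh18a1* calls were kept in 8 of 8 leave-one-out fits, and the *Slc7a1* call in 2 of 8, those without WT replicate 3 or KO replicate 4, and in 4 of 6 other settings. SC-435 raised *Gpt2*, an alanine aminotransferase of mitochondria, in female WT (log2 fold change 0.96), female KO (0.93) and male KO mice (1.19), and these calls were kept in 8 of 8 leave-one-out fits each. On SC-435, 2 of 15 were higher and 3 lower in female KO mice, beside 8.56% and 9.23% of all genes, and 3 of 15 higher and 4 lower in male KO mice, beside 8.80% and 8.36%. In female WT mice 2 of 14 were higher, beside 2.40%. None passed in chow-fed males by edgeR, where 1 was higher and 1 lower without the WT mouse of replicate 1, or between the diets in male WT mice. Among those lower were *Slc6a9*, a glycine transporter, in female KO mice (19.1 ± 4.45 to 10.1 ± 1.60 CPM) and *Mthfd2*, an enzyme of mitochondrial folate metabolism, in male KO mice (3.51 ± 1.10 to 1.51 ± 0.356 CPM, SD, n = 4). The counts of those lower fell to 1 in female KO mice without chow replicate 3 or SC-435 replicates 1, 2 or 3 (those higher to 1 without replicate 2 of either diet or SC-435 replicate 3), and to 0 or 1 in male KO mice without chow replicate 3 or any of the 4 mice on SC-435. In female WT mice, *Gpt2* alone was left without any mouse other than chow replicate 1.

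Of 12 genes for charging tRNA, which ATF4 also acts on, 4 were lower in chow-fed female KO mice than in WT mice, beside 5.05% of all genes lower. *Mars*, *Yars* and *Cars*, the synthetases for methionine, tyrosine and cysteine, had log2 fold changes of -0.49, -0.48 and -0.59, and none of the 4 was left without WT replicate 2 or 3 or KO replicate 2 or 3, or with library size only, and 2 without WT replicate 1. In male KO mice SC-435 raised *Xpot*, which exports tRNA from the nucleus (log2 fold change 0.32), a call kept in 4 of 8 leave-one-out fits. Of 14 signalling and regulator targets, *Tnfrsf10b*, a death receptor, was higher in chow-fed female KO than in WT mice (0.522 ± 0.144 to 2.14 ± 1.09 CPM), and *Atf5* (418 ± 18.7 to 210 ± 28.1 CPM) and *Cebpb* (144 ± 57.7 to 49.4 ± 12.3 CPM, SD, n = 4) were lower, beside 9.83% of all genes higher and 5.05% lower. These 3 calls were kept in 8 of 8 leave-one-out fits. SC-435 raised *Atf5* in female KO mice (log2 fold change 0.66) and *Vldlr*, a lipoprotein receptor, in female (1.09) and male KO mice (2.05). Of the 14, SC-435 left 2 higher in female KO mice and 1, *Sesn2*, lower (-0.80), and in male KO mice 4 were higher, with *Cebpb* at 0.72, and 2 lower, with *Gdf15* at -1.07. The *Vldlr* call in males and the *Atf5* call were kept in 8 of 8 leave-one-out fits, and the other 4 in 2 to 4. None of the 14 passed in chow-fed males or between the diets in male WT mice. Without the WT mouse of replicate 1, 3 were higher in each, beside 4.38% of all genes in the first and 220 of 15577 genes in the second.

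*Hspa5* encodes BiP, the main chaperone of the ER lumen, and was lowered by SC-435. Female WT mice had 1814, 1510, 1539 and 891 CPM on chow and 818, 736, 607 and 519 CPM on SC-435. No treated mouse reached the lowest chow-fed mouse (log2 fold change -1.11 ± 0.21 SE, edgeR adjusted p = 0.0218). Female KO mice had 1872, 1722, 789 and 786 CPM on chow and 717, 499, 529 and 521 CPM on SC-435, with no overlap though the chow-fed mice fell into a high and a low pair (-1.19 ± 0.29 SE, adjusted p = 0.0214). Male KO mice had 961, 1091, 1125 and 1755 CPM on chow and 717, 837, 852 and 810 CPM on SC-435, also with no overlap (-0.61 ± 0.19 SE, adjusted p = 0.0495).

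These *Hspa5* calls lay near the threshold. In female WT mice the call was lost without chow replicate 2 or 3 or SC-435 replicate 2, 3 or 4, and in female KO mice without chow replicate 2 or SC-435 replicate 2, 3 or 4. In male KO mice it was lost without chow replicate 2 or 3 or any mouse on SC-435. The adjusted p values were at most 0.133, and the log2 fold change was negative in each of these fits. In male WT mice the means were 852 ± 373 CPM on chow and 906 ± 227 CPM on SC-435 (SD, n = 4), and the chow mean was 670 ± 90.3 CPM (n = 3) without replicate 1, which had 1400.5 CPM. The difference between the diets did not pass with or without it (log2 fold change 0.09 and 0.44, edgeR adjusted p = 0.949 and 0.273). Genotype did not pass on either diet in either sex. In chow-fed males the KO mean was 1233 ± 355 CPM, and without the WT mouse of replicate 1 the comparison with WT mice had an adjusted p of 0.0509 (edgeR). Over the 32 mice *Hspa5* had r = 0.50 with the macrophage and 0.60 with the neutrophil sum. After group means were subtracted these were 0.43 and 0.39 (0.39 and 0.28 without that mouse). With the other sums r lay between -0.16 and 0.31 over the 32 mice, and between -0.01 and 0.37 after subtraction. The part of these cells in the *Hspa5* result was not tested.

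Other ER chaperones and folding enzymes were lowered by SC-435 as well. Of 18 in this list, 13 were lower in female WT mice, beside 1.88% of all genes lower. In KO mice 6 were lower in females, beside 9.23%, and 10 in males, beside 8.36%. None passed in male WT mice, with or without the mouse of replicate 1. The median log2 fold change over the list was -0.68, -0.53 and -0.43 in the first 3 comparisons, where the median of all genes tested lay between -0.03 and 0.00. *Hyou1*, a helper of BiP, fell from 409 ± 108 to 156 ± 44.4 CPM in female WT mice, and *Manf*, a secreted ER stress protein, from 162 ± 52.1 to 59.9 ± 13.9 CPM (SD, n = 4). *Creld2*, which is known to respond to ER stress, fell from 99.8 ± 74.7 to 18.9 ± 3.17 CPM in female KO mice and from 85.0 ± 27.9 to 34.1 ± 2.86 CPM in male KO mice.

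The chaperone counts depended on single mice, as did the counts over all genes. In female WT mice the chaperone count was 1 without SC-435 replicate 3 or 4, 3 without chow replicate 2 or 3, 4 without SC-435 replicate 2 and 8 without chow replicate 1. Over all genes, 100, 64, 116, 132, 122 and 320 were lower in these fits in turn, beside 296 in the main fit. In female KO mice the chaperone count was 1 without chow replicate 1 or 2 or SC-435 replicates 2, 3 or 4, 3 without SC-435 replicate 1, 11 without chow replicate 3 and 10 without chow replicate 4. Over all genes, 1113, 717, 639, 796, 1282, 786, 1109 and 2171 were lower in these fits in turn, beside 1508 in the main fit. In male KO mice the chaperone count was 4 without SC-435 replicate 1 and 2 without SC-435 replicate 4. Over all genes, 446 and 395 were lower in these fits, beside 1337 in the main fit. The male KO chaperone count was 0 when all 4 male groups were fitted together. The fall of *Creld2* in KO mice of both sexes was kept in 8 of 8 leave-one-out fits. In chow-fed KO against WT mice, 1 of 18 was lower in females, *Dnajb9* (not without KO replicate 2), beside 5.05% of all genes lower. None passed in males, where 7 were higher without the WT mouse of replicate 1, beside 4.38% of all genes higher.

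**Figure D5:**
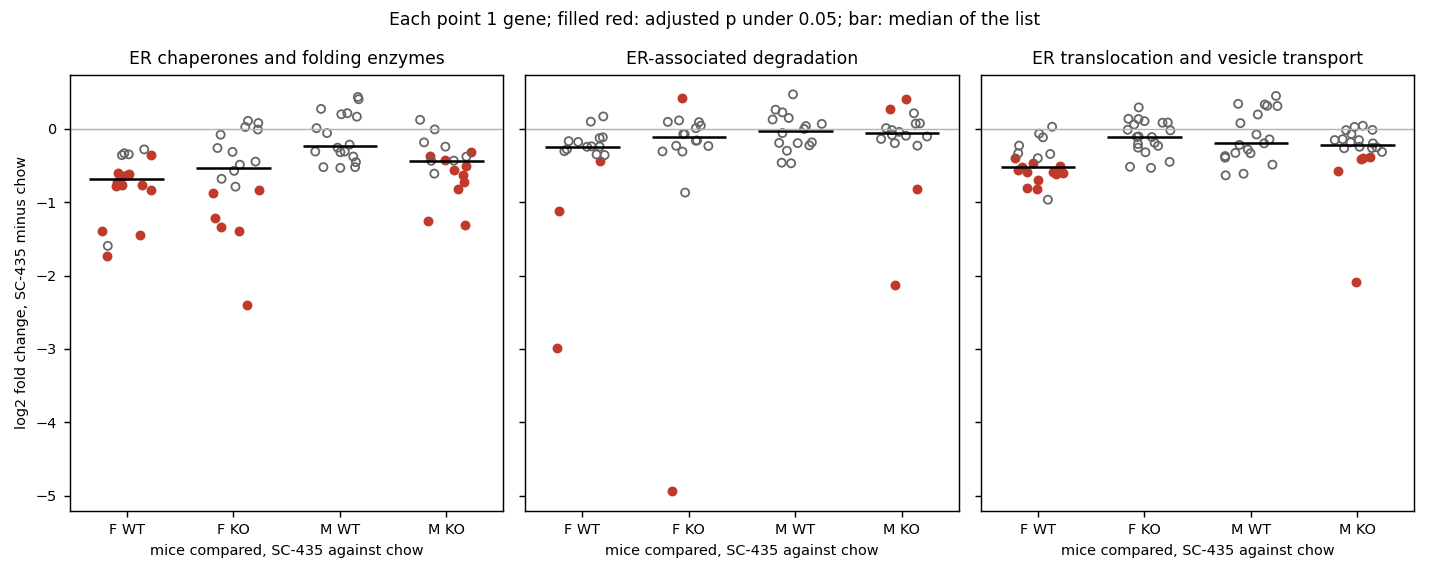
Log2 fold change of SC-435 against chow for each gene of 3 ER lists (panels) in the 4 pairs of sex and genotype, with filled points where the adjusted p was under 0.05 and a bar at the median of the list. The chaperone medians lie at -0.68 in female WT, -0.53 in female KO and -0.43 in male KO mice, and no gene of these lists is filled in male WT mice.

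Genes for moving proteins into and out of the ER followed in part. Of 20 listed for translocation and vesicle transport, 12 were lower on SC-435 in female WT mice, beside 1.88% of all genes lower. In male KO mice 5 were lower, beside 8.36%. In female KO mice 0 were lower by edgeR, where DESeq2 and other settings gave up to 3. *Sec61b*, a subunit of the channel, went from 56.5 ± 4.65 to 37.8 ± 3.62 CPM in female WT mice, and *Ssr1* from 132 ± 9.22 to 88.0 ± 9.57 CPM (SD, n = 4). These 2 calls were kept in 8 of 8 leave-one-out fits. The count in female WT mice was 4 without chow replicate 2 or SC-435 replicate 4, 5 without SC-435 replicate 3, 6 without chow replicate 3 and 7 without SC-435 replicate 1. Over all genes, 116, 64, 100, 132 and 182 were lower in these fits in turn, beside 296 in the main fit. In male KO mice the list count was 1 to 3 without chow replicate 3 or 4 or any of the 4 treated mice, where 395 to 1135 of all genes were lower in place of 1337. It was 12 with library size only and 0 with all 4 male groups fitted together. In chow-fed female KO mice, 4 of 20 were lower than in WT mice, beside 5.05% of all genes lower. Of these, 0 or 1 was left without WT or KO replicates 1, 2 or 3, where 242 to 702 of all genes were lower in place of 818.

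*Herpud1*, a membrane protein of ER-associated degradation, was lower in chow-fed female KO than in WT mice and, unlike *Hspa5*, was raised by SC-435 in female KO mice. Chow-fed female WT mice had 427, 475, 784 and 411 CPM, and KO mice had 156, 135, 208 and 214 CPM. The groups lay far apart (log2 fold change -1.56 ± 0.23 SE, edgeR adjusted p = 0.00292), and 8 of 8 leave-one-out fits kept the call. SC-435 raised it in female KO mice to 228, 277, 274 and 302 CPM, all above the chow-fed KO mice (0.60 ± 0.15 SE, edgeR adjusted p = 0.0257), a call kept in 3 of 8 leave-one-out fits, those without chow replicate 3 or 4 or SC-435 replicate 1. Female WT mice on SC-435 ranged from 243 to 707 CPM, so that the difference between genotypes on SC-435, -0.77 ± 0.28, did not pass (SE, edgeR adjusted p = 0.111).

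In males, *Herpud1* overlapped between all groups. The chow-fed WT mice had 928, 371, 344 and 332 CPM and the KO mice 298, 536, 391 and 332 CPM. The sex difference in the genotype effect was -1.21 ± 0.47 (female minus male, log2, SE, edgeR adjusted p = 0.666), and -1.71 without the male WT mouse of replicate 1 (adjusted p = 0.0421). Hepatocyte markers also differed in chow-fed females, with sums of 92150 to 118504 CPM in WT and 57028 to 78520 CPM in KO mice. Of 8 markers 4 were lower and 1 higher, beside 5.05% and 9.83% of all genes. *Herpud1* had r = 0.54 with the hepatocyte sum over the 32 mice and 0.69 after group means were subtracted (0.44 and 0.62 without that mouse). With the endothelial sum r was 0.32 and 0.70 (0.26 and 0.66 without it). The part of these cells in the *Herpud1* result was not tested. An antisense gene that overlaps *Herpud1* had at most 118 counts in a mouse.

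Of the 16 other genes of ER-associated degradation, 3 were lower in chow-fed female KO than in WT mice, beside 5.05% of all genes lower, among them *Derl1* and *Derl2*, with log2 fold changes of -0.31 and -0.43. SC-435 left 3 lower in female WT mice, beside 1.88%, 1 higher and 1 lower in female KO mice, beside 8.56% and 9.23%, and 2 higher and 2 lower in male KO mice, beside 8.80% and 8.36%. None passed in chow-fed males, where 2 were higher without the WT mouse of replicate 1, beside 4.38% of all genes higher. *Derl3*, a scarce member of the Derlin family, was lower on SC-435 in female WT (8.02 ± 6.36 to 1.01 ± 0.833 CPM), female KO (15.8 ± 16.4 to 0.512 ± 0.305 CPM) and male KO mice (6.08 ± 3.68 to 1.38 ± 0.832 CPM; SD, n = 4). *Syvn1*, the ligase HRD1, was lower in female WT (log2 fold change -1.12) and male KO mice (-0.82). Of the 3 lower in chow-fed females, 0 or 1 was left without WT replicate 2 or 3 or KO replicate 2 or 3. In these fits 242 to 423 of all genes were lower in place of 818. Of the 3 lower on SC-435 in female WT mice, none was left without chow replicate 2 or 3 or SC-435 replicate 2, 3 or 4. There 64 to 132 of all genes were lower in place of 296. Without chow replicate 4, 7 of the list passed, and 577 of all genes in place of 674.

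*Xbp1*, the mRNA that IRE1 cuts, was lowered by SC-435 in female WT mice. It was at 260, 255, 277 and 317 CPM on chow and at 167, 148, 207 and 148 CPM on SC-435 (log2 fold change -0.73 ± 0.12 SE, edgeR adjusted p = 0.0152), with no overlap, and the call was lost only without SC-435 replicate 4 (adjusted p = 0.0582). Chow-fed female KO mice had 240, 178, 180 and 221 CPM, below all WT mice on chow (-0.45 ± 0.13 SE, adjusted p = 0.0447), a call kept in 2 of 8 leave-one-out fits, those without KO replicate 1 or 4. SC-435 gave female KO mice 177, 141, 138 and 167 CPM, and the log2 fold change of -0.39 ± 0.13 did not pass (SE, adjusted p = 0.0571). In male WT mice *Xbp1* was at 734, 371, 456 and 357 CPM on chow and at 208, 219, 200 and 310 CPM on SC-435. These groups did not overlap, where 7.10% of genes did not, and the log2 fold change of -1.03 did not pass in edgeR (adjusted p = 0.419), nor without the mouse of replicate 1 (-0.75, adjusted p = 0.0528).

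Among the sensors and site proteases upstream of *Xbp1* and *Atf6* targets, 6 genes in all, *Atf6b* was lower on SC-435 in female KO (37.3 ± 6.75 to 25.6 ± 3.14 CPM) and male KO mice (39.9 ± 4.87 to 30.1 ± 2.21 CPM, SD, n = 4). The female call was kept in 4 of 8 leave-one-out fits and lost without chow replicate 2 or SC-435 replicate 2, 3 or 4. The male call was kept in 5 of 8, being lost without SC-435 replicate 1, 2 or 4, and in 4 of 6 other settings. *Eif2ak3*, given above, belongs to this list too, and no other gene of it passed in the comparisons of diet or of genotype on chow, though without the male WT mouse of replicate 1, 1 was higher and 1 lower in chow-fed male KO mice and 1 was lower on SC-435 in male WT mice.

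*Creb3l3*, the hepatocyte factor for triglyceride and acute phase genes, was lower in female KO mice on either diet. On chow, WT mice had 345, 363, 395 and 369 CPM and KO mice 303, 282, 299 and 242 CPM (log2 fold change -0.40 ± 0.10 SE, edgeR adjusted p = 0.0294), a call kept in 2 of 8 leave-one-out fits, those without WT replicate 1 or KO replicate 1. On SC-435, WT mice had 286, 278, 304 and 318 CPM and KO mice 233, 224, 246 and 243 CPM (-0.32 ± 0.06 SE, adjusted p = 0.0125), kept in 8 of 8. The groups overlapped on neither diet. SC-435 against chow in female WT mice gave -0.32 ± 0.08, which did not pass (SE, edgeR adjusted p = 0.0532). In males, means lay between 324 ± 12.9 and 348 ± 21.0 CPM apart from the chow-fed WT mice at 510 ± 266 CPM (SD, n = 4), where replicate 1 had 907 CPM and the other 3 had 378 ± 39.1 CPM. *Creb3l3* followed the hepatocyte marker sum given above with r = 0.43 over the 32 mice and 0.68 after group means were subtracted, but with -0.06 and -0.12 without the male WT mouse of replicate 1, so that both values rest on that mouse. The part of hepatocyte content in these results was not tested.

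Known targets of CREB3L3 did not move as 1 group. Of 9 listed, 8 were tested in chow-fed KO against WT mice. None passed in females or males by edgeR, while other settings gave up to 3 lower in females. On SC-435, 4 of 8 were lower in female KO than in WT mice, beside 4.69% of all genes lower. SC-435 lowered, in female KO mice, *Hamp*, the iron hormone hepcidin (554 ± 111 to 314 ± 73.6 CPM), and *Cidec*, and raised *Apcs*, serum amyloid P (59.6 ± 12.6 to 93.2 ± 17.0 CPM). In male KO mice, *Apoa5* was higher (730 ± 126 to 1061 ± 167 CPM) and *Apoa4* lower (62.2 ± 18.9 to 30.4 ± 11.3 CPM, SD, n = 4). The *Hamp* call was kept in 8 of 8 leave-one-out fits and the other 4 in 1 to 3 of 8.

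Likeness to other genes was measured as Pearson's r of log2 CPM over the 32 mice, and protein-coding genes averaging 50 counts or more were searched. It describes mice that share groups and libraries. *Hspa5* was most like *Creld2* (r = 0.97), *Manf* (0.96) and *Hyou1* (0.94), and the same 3 led after group means were subtracted (0.96, 0.94 and 0.95). These held without the male WT mouse of replicate 1 (0.98, 0.98 and 0.97). *Atf3* was most like *Dhrs9* (0.91), *Thbs1* (0.90) and *Mmp12* (0.89), and *Asns* most like *Treh* (0.88), *Nat8f5* (0.84) and *Clstn3* (0.84), with 0.89 to 0.90 and 0.83 to 0.88 without that mouse. *Herpud1* was most like *Pim3* (0.88), *Cebpb* (0.87) and *Lpin1* (0.83), with 0.84 to 0.86 without it. For *Creb3l3*, *Atg13* and *Tusc2*, among the 3 leading genes, had r of 0.93 and 0.92 over 32 mice and 0.82 and 0.81 without that mouse.

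Of the other 5 genes, *Xbp1* had neighbours about as close as those of *Herpud1*, and the rest had looser ones. *Xbp1* was most like *Rbbp4*, *Noc4l* and *Ints5* (0.86 to 0.87, and 0.80 to 0.82 without that mouse), *Ddit3* most like *Desi2*, *Ccl2* and *Zfp9* (0.77 to 0.79, and 0.73 to 0.77) and *Trib3* most like *Agfg2*, *Pbld1* and *Tbc1d10a* (0.73 to 0.77, and 0.72 to 0.75). *Chac1* had r of at most 0.73 (*Oser1*, and 0.66 without that mouse) and *Atf4* of at most 0.64 (*Cyp2d40*, and 0.66). Among the 10 genes themselves, the closest pairs were *Xbp1* with *Creb3l3* (0.80, and 0.70 without that mouse) and *Ddit3* with *Atf3* (0.61, and 0.59), while *Trib3* ran against *Ddit3* (-0.50, and -0.46) and *Herpud1* against *Atf3* (-0.44, and -0.41). *Ddit3* with *Hspa5* had 0.51, and 0.63 without that mouse.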

How the data were processed

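Liver mRNA libraries were prepared and sequenced by Novogene. The authors deposited whole-number read counts per gene, which carry no normalization, and FPKM values per mouse, which were used here only to order the genes per length. The submitters' processing notes name mm10, HISAT2 2.0.5, featureCounts 1.5.0-p3, DESeq2 1.20.0 and GATK 4.1.1.0. The annotation and the strand setting are not given in the sources used here, though the coordinates of the 11 entries equal those of GENCODE vM21. The authors' own fold changes and p values were not used. Genes were kept by filterByExpr, normalized by TMM and tested with the quasi-likelihood test of edgeR 4.0.16 in R 4.3.3, with Benjamini-Hochberg adjustment over all genes tested and a call at an adjusted p under 0.05. Standard errors are the log2 fold change divided by the square root of F. Interactions were tested on 16 libraries. Log2 CPM for correlations used a prior count of 2. The 10 genes, the gene lists and the motifs were chosen with earlier results of these data known. Named list genes are up to 3 per list and comparison with the smallest adjusted p, and like genes the 3 with the highest r. Some genes these rules name are not reported here. The male values of *Mars* are given because it overlaps *Ddit3*. The edgeR and DESeq2 fits were tested on simulated data. Within groups, 48 pairs of libraries differed by more than sampling noise (lowest chi-square per gene 19.0). The highest were those of the chow-fed male WT mouse of replicate 1 (511 to 528). Next was the male WT mouse of replicate 4 on SC-435, at 254 to 296 beside 23.3 to 30.4 among the rest of its group. That mouse had *Herpud1* at 178 CPM, beside 487 to 736 CPM in the rest, and is left out in turn among the leave-one-out fits. Replicates are single mice, and the labels name no litter or cage. Other settings were the RLE scaling of edgeR, unscaled library sizes (library size only), DESeq2 1.42.0, testing every gene with a count, a block for the replicate number, all 4 groups of a sex in a single fit, an added fold threshold (log2 beyond 1), and leaving out each mouse.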

Additional observations from a re-analysis of the deposited data

Results flagged for a closer look

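Within 80 groups of 4 mice (10 genes in 8 groups), 7 had 1 mouse far from the other 3 by Dixon's test, where chance gives about 1 in 20. *Atf3* was at 10.8 CPM in the chow-fed female KO mouse of replicate 2, beside 3.30 to 4.20 CPM in the others. *Atf4* was at 89.6 CPM in the chow-fed male WT mouse of replicate 2, beside 104 to 107 CPM. *Asns* was at 35.3 CPM in the male KO mouse of replicate 2 on SC-435, beside 28.3 to 29.3 CPM. *Hspa5* was at 717 CPM in the female KO mouse of replicate 1 on SC-435, beside 499 to 529 CPM, which left it below all chow-fed KO mice. *Xbp1* was at 310 CPM in the male WT mouse of replicate 4 on SC-435, beside 200 to 219 CPM. The chow-fed male WT mouse of replicate 1 stood out for *Herpud1* at 928 CPM, beside 332 to 371 CPM, and for *Creb3l3* at 907 CPM, beside 336 to 413 CPM.

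The effect of SC-435 on *Atf3* differed between male KO and WT mice, by the test of the difference itself, with -2.52 on the log2 scale (SE 0.39, edgeR adjusted p = 0.0299). It was kept in 8 of 16 leave-one-out fits and lost with the replicate block.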

How the results depend on the processing

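Of 120 pairs of a gene and a comparison, 22 passed, and 10 of these passed under every alternative other than the fold threshold, which this count leaves out. No fold change changed sign among the pairs that passed in the main fit or in any alternative. Signs of the other pairs were not compared. In female KO against WT mice on chow, 4 of the 10 genes passed, and 2 with library size only, 2 with the replicate block and 2 with the fold threshold. For SC-435 in female KO mice the 5 became 8 with library size only, 8 with DESeq2 and 3 with the fold threshold, and in female WT mice the 3 became 5 with DESeq2. In male KO against WT mice on chow the 2 became 1 with library size only and 1 with the replicate block, and for SC-435 in male KO mice the 4 became 2 in a single fit of 4 groups and 2 with the fold threshold. DESeq2 gave 1 in place of 0 in male WT mice, between males on SC-435, for the female genotype by diet test and for both sex differences, and 2 in place of 1 for the male genotype by diet test, which the replicate block made 0. The cause was not tested, and the shares of all genes under DESeq2 are not given here. Leaving out 1 mouse gave 2 to 4 (female KO against WT on chow, and on SC-435), 2 to 8 (SC-435 in female KO mice), 1 to 4 (in female WT mice), 1 to 2 (male KO against WT on chow), 3 to 4 (SC-435 in male KO mice), 0 to 0 (both other male comparisons and the sex difference for SC-435), 0 to 1 (female genotype by diet, sex difference for genotype) and 0 to 2 (male genotype by diet). With library size only, all genes shifted together, their median going from -0.02 to 0.17 (log2) between genotypes in chow-fed females, from -0.02 to -0.18 for SC-435 in female KO mice, from 0.04 to 0.29 between genotypes in chow-fed males and from -0.03 to -0.23 for SC-435 in male KO mice. The calls over all genes then went from 1593 higher and 818 lower to 2727 and 275, from 1398 and 1508 to 826 and 3202, from 148 and 24 to 141 and 6, and from 1407 and 1337 to 755 and 2320. Those of the genotype by diet test went from 145 and 300 to 109 and 838 in females and from 2 and 13 to 0 and 12 in males. Leaving out 1 mouse moved the calls over all genes as well, and list counts in such fits are to be read beside these. They ran from 1201 to 3197 between genotypes in chow-fed females (2411 in the main fit). On SC-435 the female genotypes gave 796 to 1456 (1732). For SC-435 they ran from 1287 to 4403 in female KO mice (2906) and from 159 to 774 in female WT mice (674). In male KO mice this range was 985 to 3370 (2744). In chow-fed males it was 10 to 1196 (172). Without the male WT mouse of replicate 1, 1196 genes passed in chow-fed males in place of 172, and 394 in place of 6 between the diets in male WT mice. Mice with the same replicate number correlated weakly, 4 of 32 pairs over 0.1 (range -0.15 to 0.15). In male KO against WT mice on chow, 6 of 8 mice correlated best with their own number, with pair correlations of 0.02 to 0.15. In the other comparisons 1 to 3 of 8 did, and pairing in those chow-fed males is not settled by these values. With 4 mice per group, a difference that did not pass may still exist. Without the chow-fed male WT mouse of replicate 1, lists with no call in chow-fed males also gave 3 higher (translocation and vesicle transport), 1 higher (CREB3L3 targets) and 1 lower each (tRNA charging, eIF2 kinases and subunits), and 1 immediate early gene was higher on SC-435 in male WT mice. The list counts and named list genes were run under the same alternatives, and levels, correlations and marker counts without that mouse, after seeing the data.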
